A study of Mus musculus with 49 samples.

Results

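Peripheral blood mononuclear cells (PBMC) of mice were compared at 1.5 h and at 1 h after an injection of oleic acid (OA), which covers a step of 30 minutes in the first phase of the injury. The comparison holds 13 of the 49 arrays of the series and 10 of its 37 mice. The 1.5 h group has 8 arrays of 6 mice and the 1 h group has 5 arrays of 4 mice, as given by the incubation label and the mouse number of each array. All these animals were female wild-type C57Bl/6J mice, 7 weeks old, anesthetized with xylazine and ketamine, and given 20 µl of OA through the tail vein. Mice given physiological serum through the same route served as controls, and 1 serum mouse at 1.5 h (1 array) and 2 serum mice at 1 h (3 arrays) enter the difference described further on. Each animal was sampled at 1 time, so the 2 times are different mice, and a mouse number that occurs at both times does not mark the same animal. No untreated blood of time 0 is among the samples.

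As background, OA given intravenously is carried to the lung, where it injures the capillary wall and starts an acute inflammation, and blood leukocytes meet the stimulus as they pass. Cells that sense such a signal switch on genes in waves. Immediate-early genes such as those of the AP-1 family come first, genes driven by the transcription factor NF-kB follow, among them its own inhibitor Nfkbia and the cytokine gene Il1b, and both waves are brief because their products include repressors and unstable messengers. Neutrophils and monocytes carry most of this response in blood and also move between marrow, vessel wall and blood, which alters the mix of cells. In bulk samples, fewer cells of a type and less RNA per cell cannot be told apart.

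RNA was amplified, labelled with 33P and hybridized to nylon filters carrying spotted mouse cDNA clones, 1 sample per filter. The values are log2 signals after quantile normalization, 1 per clone and mouse, and a change is the mean of the 1.5 h mice minus the mean of the 1 h mice, with its standard error (SE). The SE uses a spread pooled over all 37 mice of the series, each within its group of agent and time. A spot was taken as well above background when its signal exceeded the median of the empty spots on that filter by 2.6 robust SDs. Between 53.1% and 57.9% of clone spots met this on the 1.5 h arrays, and between 48.7% and 53.7% on the 1 h arrays.

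The filters of the 2 times differed in brightness before normalization. The median clone spot had a signal of 228 to 364 on the 8 arrays of 1.5 h, against 141 to 222 on the 5 arrays of 1 h, and the 2 ranges do not overlap. Averaged per mouse, the log2 of this median was 8.07 ± 0.24 at 1.5 h (SD, n = 6) and 7.53 ± 0.18 at 1 h (SD, n = 4), a difference of 0.54, or 1.46-fold (exact two-sided permutation test over mice, p = 0.00476, the smallest that 210 assignments allow). The empty spots moved with it, with medians of 94 to 125 at 1.5 h and 60 to 90 at 1 h. Quantile normalization gives all arrays the same distribution, and the part of this brightness in the changes of single genes was not tested.

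**Figure D1:**
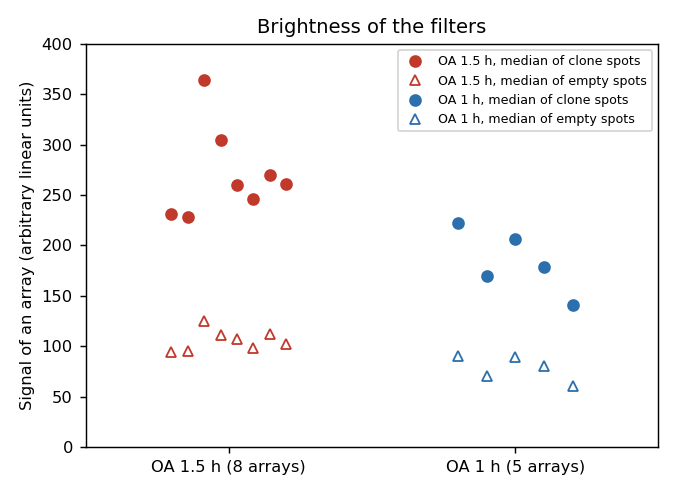
Median signal of the clone spots (filled circles) and of the empty spots (open triangles) on each filter, on a linear scale. The 8 filters of 1.5 h lie at 228 to 364 and the 5 filters of 1 h at 141 to 222, and the empty spots are separated in the same way.

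The cells carried the genes of their label together with those of cells that a mononuclear preparation should hold few of. The T cell receptor components Cd3e and Cd3d and the kinase gene Lck, the B cell genes Cd79b, Cd22 and Ms4a1, and the NK cell genes Klrd1, Nkg7 and Ncr1 were well above background on all 13 arrays. So were S100a8 and S100a9, which encode the calprotectin subunits of neutrophils and monocytes, the platelet genes Pf4 and Ppbp, and the red cell genes Alas2 and Slc4a1. The globin clones that represent Hba-a1 and Hbb-b1 were at the signal ceiling on all 13 arrays. Of the monocyte genes, the growth factor receptor gene Csf1r was well above background on all 13 arrays and the chemokine receptor gene Ccr2 on 6 of 8 arrays of 1.5 h and 4 of 5 of 1 h, whereas the T cell receptor component Cd3g was so on 1 of 8 and 1 of 5. The monocyte receptor gene Cd14, the perforin gene Prf1 and the endothelial genes Cdh5 and Cldn5 were not well above background on any of them. Of the fixed markers, 9 have no clone with that name on the filter, among them the neutrophil genes Ngp and Csf3r and the lung surfactant genes Sftpb and Sftpc.

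No gene passed the test between 1.5 h and 1 h. Of 7739 clones, 0 (0%) reached an adjusted p under 0.05 in limma, and the smallest adjusted p was 0.9999. At an unadjusted p under 0.05 there were 266 clones, 137 higher and 129 lower at 1.5 h, which is 3.44% of all clones where a uniform distribution of p-values gives 5%. Taking 1 clone per gene, 99 of 5776 genes (1.71%) were higher and 94 (1.63%) lower at that unadjusted threshold. Groups that did not overlap between the times were found for 65 clones (0.84%). In the same fit, OA mice at 24 h against the same 1 h mice gave 357 clones past an adjusted p of 0.05 (4.61%).

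The precision differed between clones. The median SE of a change was 0.21, and the median 95% interval extended 0.44 on either side. The interval lay wholly within a 2-fold change in either direction for 6803 clones (87.9%). Among the 4460 clones well above background on at least 4 of the 8 arrays of 1.5 h or 3 of the 5 of 1 h, it did so for 3584 (80.4%). A change of over 2-fold was estimated for 17 clones, 13 higher and 4 lower at 1.5 h. Of the 13, 9 belong to the 8 genes Acod1, Clec4d, G0s2, Gadd45b, Ier3, Il1b, Lmnb1 and S100a9, named here after their values were seen, with G0s2 on both of its clones.

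**Figure D2:**
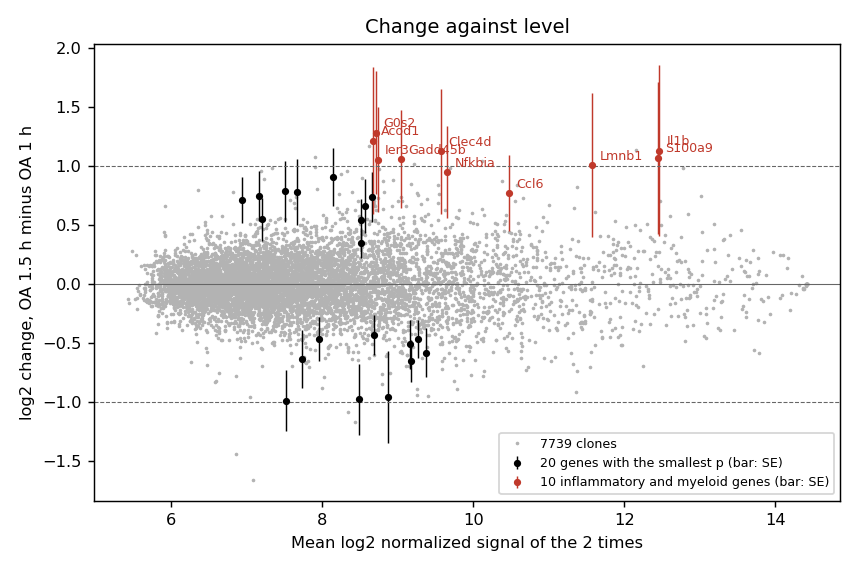
Change between the times (vertical axis, log2, 1.5 h minus 1 h) against mean level (horizontal axis, log2 signal) for all 7739 clones, with the 20 genes of smallest p in black and 10 genes chosen after their values were seen in red (bars, SE). The legend calls these 10 inflammatory and myeloid, although Lmnb1 among them encodes lamin B1. The dashed lines mark a 2-fold change, and the bars of the red genes are wide compared with those of the black ones.

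The cytokine gene Il1b, which encodes interleukin-1 beta, showed how the mice were spread. Its log2 level at 1.5 h ranged from 10.24 through a median of 13.68 to 14.27, and at 1 h it was 11.20, 11.46, 12.37 and 12.56. Mice 5, 6, 7 and 8 of 1.5 h lay above every 1 h mouse, mouse 2 of 1.5 h lay below every 1 h mouse, and mouse 3 lay among them. The means were 13.03 ± 1.59 at 1.5 h (SD, n = 6) and 11.90 ± 0.67 at 1 h (SD, n = 4), and the change of 1.13 (SE 0.73) did not pass (limma, adjusted p = 0.9999). Mice given serum had 13.12 and 11.36 at 1 h and 11.58 at 1.5 h, so 1 of them at 1 h lay above every OA mouse of 1 h.

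Nfkbia encodes IkB-alpha, the inhibitor that NF-kB induces and that holds it in the cytoplasm. It had 8.31, 10.67 and 11.10 as lowest, median and highest log2 level at 1.5 h, against 8.78, 9.08, 9.17 and 9.71 at 1 h. Again mice 5, 6, 7 and 8 of 1.5 h were above all 1 h mice, and mice 2 and 3 were not. The change was 0.95 (SE 0.39, 95% interval 0.16 to 1.74, adjusted p = 0.9999 in limma), and its other clone gave 0.87 (SE 0.36). All groups of the series enter these SEs. Nfkbia varied more at 1.5 h (SD 1.18) than at 1 h (SD 0.39) or at the later OA times (SD 0.22 to 0.58).

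Ier3, an early response gene that restrains cell death, lay between 7.37 and 10.10 at 1.5 h with a median of 9.82, against 7.32, 7.85, 8.47 and 9.20 at 1 h. The same 4 mice of 1.5 h were above the highest 1 h mouse, and the change was 1.05 (SE 0.44). Gadd45b, a stress sensor that acts on the p38 and JNK kinases, spanned 7.76 to 10.88 at 1.5 h with a median of 9.90, against 7.72, 8.29, 8.33 and 9.72 at 1 h. Here 3 mice of 1.5 h exceeded the highest 1 h mouse, and the change was 1.06 (SE 0.41).

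G0s2, which encodes an inhibitor of the lipase that opens fat stores, gave the largest gene-level change. It had 6.80, 10.05 and 10.98 as lowest, median and highest log2 level at 1.5 h, against 7.90, 7.98, 8.04 and 8.36 at 1 h, and the change was 1.28 (SE 0.52) and 1.17 (SE 0.55) on its other clone. The 1 h mice lay close together, whereas 4 mice of 1.5 h had 9.89 or more and the other 2 had 7.92 or less. Acod1, the mitochondrial enzyme of activated macrophages that makes itaconate, spanned 7.02 to 11.51 at 1.5 h with a median of 9.88, against 7.45, 7.60, 8.12 and 9.13 at 1 h (change 1.21, SE 0.62, or 0.77 without mouse 5 of 1.5 h). Clec4d, a lectin receptor of myeloid cells, spanned 8.33 to 11.69 at 1.5 h with a median of 10.17, against 8.58, 8.63, 9.06 and 9.80 at 1 h (change 1.12, SE 0.53).

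The neutrophil gene S100a9 had 11.38, 13.10 and 14.10 as lowest, median and highest log2 level at 1.5 h, against 10.97, 11.88, 12.29 and 12.51 at 1 h, with 5 mice of 1.5 h above all 1 h mice (change 1.07, SE 0.64). Its partner S100a8 had 11.44, 12.41 and 14.05 at 1.5 h, against 11.11, 11.54, 12.01 and 13.26 at 1 h, and the change of 0.46 (SE 0.68) was smaller than its error. Lmnb1, which encodes lamin B1, had a change of 1.00 (SE 0.61), or 0.64 without mouse 5 of 1.5 h, and its dimmer clone one of 0.99 (SE 0.38). None of these genes passed, each with an adjusted p of 0.9999. Where an RNA was hybridized to 2 filters, the 7 genes from Il1b to Clec4d differed between the filters of a mouse by 0.030 to 0.65, with a median of 0.24.

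**Figure D3:**
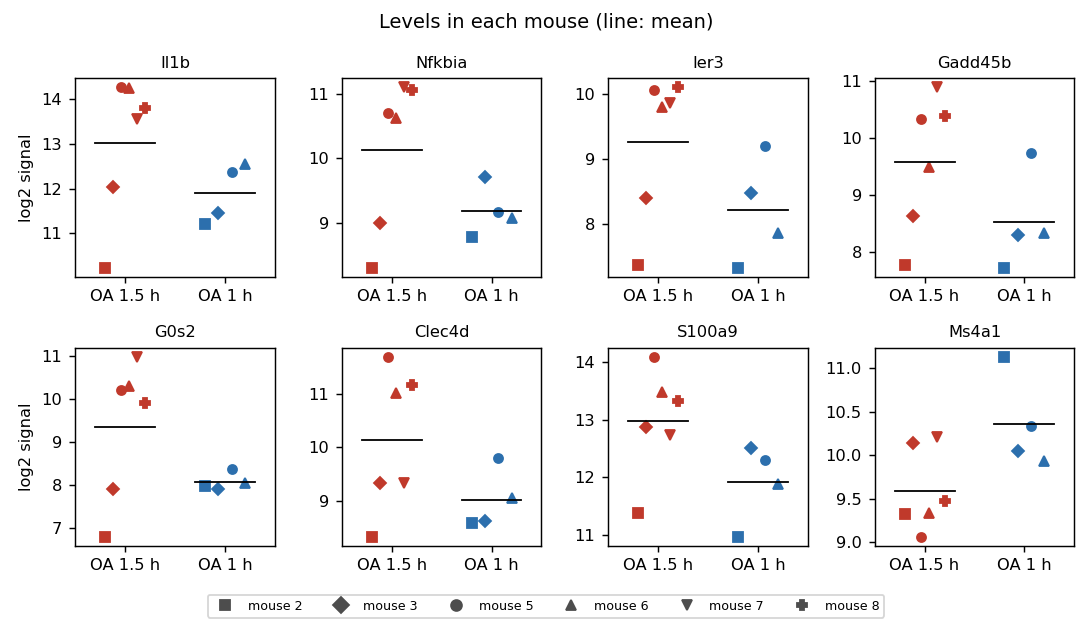
Log2 level of 8 genes in each mouse (vertical axis), with OA 1.5 h to the left and OA 1 h to the right, the symbol giving the mouse number and the line the group mean. In Il1b, Nfkbia, Ier3 and G0s2 mice 5, 6, 7 and 8 of 1.5 h lie above every 1 h mouse, and mice 2 and 3 of 1.5 h do not.

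At the next times, given here without a test, Nfkbia averaged 9.76 ± 0.58 at 3 h and 9.09 ± 0.24 at 4 h (SD, n = 4 each), and Gadd45b 7.93 ± 0.43 and 7.57 ± 0.27. Serum mice had 9.42 and 10.00 for Nfkbia at 3 h and 8.74 and 9.08 at 4 h, and for Gadd45b 8.87 and 8.54 at 3 h and 7.47 and 7.08 at 4 h. In serum mice, Nfkbia was 8.68 in the mouse of 1.5 h, against 9.62 and 9.64 in the mice of 1 h. The 2 low mice of 1.5 h OA, at 8.31 and 8.99 for Nfkbia, were thus on both sides of the serum mouse of 1.5 h. Acod1 was 9.06 and 8.11 in the serum mice of 1 h and 7.29 in that of 1.5 h. For S100a9 the serum levels were 12.85 and 12.36 at 1 h and 12.90 at 1.5 h.

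The promoters of Nfkbia and Acod1 are shown because both genes were high in mice 5, 6, 7 and 8 of 1.5 h and both windows hold the letters of an NF-kB site. Of 8 genes chosen for this search after their values were seen (Il1b, Nfkbia, Ier3, G0s2, Gadd45b, Acod1, Clec4d and Ccl6), 3 hold GGGA, any 4 bases and CC on either strand within 250 bases before and 50 after the start, and 20.7% of all 32851 promoters in the RefSeq table do. The third is G0s2, also high in those mice, whose window is not shown. No match to the AP-1 motif TGANTCA, found in 7.81% of promoters, or to the cAMP element TGACGTCA, in 1.79%, lies in these 8 windows. The loose pattern of a serum response element, CC, any 6 bases and GG, occurs in 6 of the 8 and in 73.3% of all promoters. The same search covered the genes of smallest p in each direction, described below, of which 14 are in the RefSeq table. The NF-kB letters lie in 6 of these 14, in 3 of 5 higher and 3 of 9 lower at 1.5 h. The AP-1 motif and the cAMP element lie in 0 of the 14, and the serum response pattern in 13. The NF-kB letters were thus not particular to the 8 chosen genes. Both sequences run 5′ to 3′ in the direction of the gene (RefSeq, GRCm38.p6), with these NF-kB matches of either strand in capitals. The Nfkbia window is chr12:55492598-55492897 on the minus strand and the Acod1 window is chr14:103046762-103047061 on the plus strand.
Nfkbia: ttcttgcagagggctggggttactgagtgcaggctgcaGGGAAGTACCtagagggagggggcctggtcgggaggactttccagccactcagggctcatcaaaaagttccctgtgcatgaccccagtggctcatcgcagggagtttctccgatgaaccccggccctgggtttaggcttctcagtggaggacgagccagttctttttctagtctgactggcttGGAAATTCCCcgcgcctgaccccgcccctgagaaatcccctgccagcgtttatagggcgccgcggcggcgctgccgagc
Acod1: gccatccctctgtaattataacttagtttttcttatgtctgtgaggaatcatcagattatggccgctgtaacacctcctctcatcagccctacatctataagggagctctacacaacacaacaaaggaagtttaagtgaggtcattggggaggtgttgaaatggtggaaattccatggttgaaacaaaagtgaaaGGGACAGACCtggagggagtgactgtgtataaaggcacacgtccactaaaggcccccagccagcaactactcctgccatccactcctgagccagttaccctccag
Nfkbia holds 2 matches and Acod1 holds 1. A match describes these letters only.

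Among genes well above background on at least 4 of the 8 arrays of 1.5 h or 3 of the 5 of 1 h, the 10 with the smallest p in each direction were led by Bcl7a, a subunit of SWI/SNF chromatin remodellers. Bcl7a had 6.38, 7.18 and 7.24 as lowest, median and highest log2 level at 1.5 h, against 7.58, 7.86, 8.27 and 8.36 at 1 h. The groups did not overlap, and the unadjusted p was 0.000672. It was well above background on 0 of 8 arrays of 1.5 h and 4 of 5 of 1 h, so that its level at 1.5 h is a bound. With the 1.5 h mean set at the background threshold, it was 1.66-fold lower at 1.5 h, a figure that leaves out the spread between mice. The change of Bcl7a was -0.99 (SE 0.26), or -0.10 (SE 0.02) after normexp background correction. Its other 2 clones, which were dimmer, gave changes of -0.18 (SE 0.17) and -0.01 (SE 0.17). Serum mice had 7.67 and 8.67 for Bcl7a at 1 h and 7.45 in the mouse of 1.5 h, so its level was also lower at 1.5 h without OA.

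Cept1, which makes phosphatidylcholine and phosphatidylethanolamine, had 7.81, 8.02 and 8.14 at 1.5 h, against 8.27, 8.42, 8.82 and 10.39 at 1 h. The groups did not overlap, but the change of -0.98 (SE 0.30) rested in large part on mouse 3 of 1 h and was -0.50 without it. Clec2d, a ligand of inhibitory NK cell receptors, had 8.43, 8.81 and 9.24 at 1.5 h, against 9.22, 9.37, 9.46 and 9.96 at 1 h (change -0.65, SE 0.18), with 1 mouse of 1.5 h inside the range of 1 h. Surf2 had a change of -0.63 (SE 0.24) with groups that did not overlap, although its dimmer clone gave 0.07 (SE 0.33).

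Tor1aip2, an activator of torsin in the endoplasmic reticulum, had a change of -0.46 (SE 0.16), and its other 2 clones gave -0.52 and -0.60. Cbfb, the partner of the Runx transcription factors, had -0.58 (SE 0.21), Utp3, a factor of ribosome assembly, -0.43 (SE 0.17), and the RNA-binding protein gene Atxn2 -0.46 (SE 0.19). The thioredoxin-like protein gene Tmx1 had -0.51 (SE 0.21), and Sorbs2, an adaptor of the actin cytoskeleton, -0.95 (SE 0.39). For each of these 6 the ranges of the 2 times overlapped.

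On the higher side, Pink1, a kinase that marks damaged mitochondria for removal, had 8.57, 8.95 and 9.48 at 1.5 h, against 7.97, 8.24, 8.25 and 8.71 at 1 h (change 0.74, SE 0.21). Ppt1, a lysosomal enzyme that removes palmitate from proteins, had a change of 0.66 (SE 0.23), Ilkap, a phosphatase that acts on integrin-linked kinase, 0.54 (SE 0.18), the histone demethylase gene Kdm2a 0.35 (SE 0.13), and Trf, which encodes transferrin, 0.78 (SE 0.28). Trf was well above background on 8 of 8 arrays of 1.5 h and 2 of 5 of 1 h.

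In 4 further genes on the higher side no array of 1 h was well above background. Pi16, a peptidase inhibitor gene, was so on 6 of 8 arrays of 1.5 h. It had 7.05, 7.51 and 7.93 at 1.5 h, against 6.22, 6.91, 7.00 and 7.03 at 1 h. With the 1 h mean set at the background threshold, Pi16 was 1.09-fold higher at 1.5 h. The same figure was 1.41-fold for Rab5c, a GTPase of early endosomes. It was 1.05-fold for Bloc1s6, a subunit of a complex that builds lysosome-related organelles. These figures leave out the spread between mice. The change of Rab5c was 0.78 (SE 0.26), and 1 mouse of 1.5 h lay below every 1 h mouse. For Sh2d3c, an adaptor in lymphocyte migration, no fold could be given. The groups of Pi16 and Bloc1s6 did not overlap. The changes of all 20 genes were smaller after normexp background correction, with -0.30 (SE 0.11) for Cept1 the largest in size. Their SEs were smaller as well, so the smaller changes alone do not show weaker differences.

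In none of the 24 gene lists did a gene pass in either direction. Beside them, 48.3% of all 5776 genes had a change above 0, and the median change was -0.01. The lists were chosen with earlier results of these data known. Neutrophil genes had 17 of 19 measured members above 0, with a median of 0.24, and monocyte and macrophage genes 19 of 23, with a median of 0.19. The smallest p among monocyte and macrophage genes was that of Tyrobp, a signalling adaptor of myeloid receptors, with a change of 0.93 (SE 0.48), but it was well above background on 1 of 5 arrays of 1 h.

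The neutrophil list also varied between mice of 1 time. Its mean deviation from the 10 mice ran from -0.50 to 0.72 at 1.5 h and was -0.61, -0.38, -0.16 and 0.17 at 1 h. Mice 5 and 6 of 1.5 h stood highest, and mouse 2 of 1.5 h stood close to mouse 2 of 1 h. Inflammatory cytokines and chemokines had 21 of 28 members above 0, with a median of 0.16, and mean deviations of -0.23 to 0.46 at 1.5 h and of -0.27, -0.22, -0.11 and 0.08 at 1 h. Their members with an unadjusted p under 0.05 were 4 higher (Ccl6, Ccl22, Cxcl1 and Csf1) and 1 lower (Xcl1), of which Cxcl1 and Xcl1 were not well above background on any array. Csf1 was so on 4 of 8 arrays of 1.5 h and 0 of 5 of 1 h. Ccl6, a chemokine of myeloid cells, had 9.88, 10.95 and 11.62 at 1.5 h, against 9.74, 9.84, 10.15 and 10.65 at 1 h (change 0.77, SE 0.32, and 0.34, SE 0.34, on its other clone). Ccl22, which attracts T cells, had a change of 0.59 (SE 0.26), or 0.39 without mouse 2 of 1 h, while its dimmer clone had -0.04.

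NF-kB components and targets had 13 of 21 members above 0, with a median of 0.12, and immediate-early and AP-1 genes 18 of 28, with a median of 0.10. Of the AP-1 members, Fos had 10.27, 10.99 and 11.44 at 1.5 h, against 10.16, 10.69, 10.90 and 10.91 at 1 h (change 0.32, SE 0.56). Junb had 11.98, 13.89 and 14.20 at 1.5 h, against 11.61, 13.28, 13.41 and 14.22 at 1 h (change 0.38, SE 0.65), and the change was -0.12 without mouse 2 of 1 h. The change of Fos was 0.15 without mouse 2 of 1 h. The phosphatase gene Dusp1 had a change of 0.70 (SE 0.64), or 0.33 without mouse 2 of 1 h and 0.46 without mouse 5 of 1.5 h, and Il1rn, whose product blocks the interleukin-1 receptor, 0.26 (SE 0.54), or -0.13 without mouse 5 of 1.5 h. Nfkb2, a subunit of NF-kB, had 0.43 (SE 0.20), or 0.27 without mouse 2 of 1 h, with 4 of 8 arrays of 1.5 h and 1 of 5 of 1 h well above background.

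B cell genes lay on the other side, with 7 of 22 members above 0 and a median of -0.20. Ms4a1, which encodes CD20, had 9.06, 9.40 and 10.21 as lowest, median and highest log2 level at 1.5 h, against 9.93, 10.05, 10.33 and 11.13 at 1 h, a change of -0.77 (SE 0.32), or -0.51 without mouse 2 of 1 h. Of its other 3 clones, 1 gave -0.50 (SE 0.19) and 2 gave 0.04 and 0.07. Pou2af1, a coactivator of B cells, had a change of -0.54 (SE 0.25), whereas Cd79b, a subunit of the B cell receptor, had 0.10 (SE 0.32). In the serum mice the median change of the B cell list was -0.28, with 1 mouse at 1.5 h. T cell genes had 17 of 32 members above 0 with a median of 0.01, their smallest p being that of the kinase gene Txk, and NK and cytotoxic genes 8 of 16 with a median of 0.0013, the smallest p being that of the protease gene Ctsw. Both were close to background, with no 1 h array well above it for Txk and 1 of 5 for Ctsw.

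**Figure D4:**
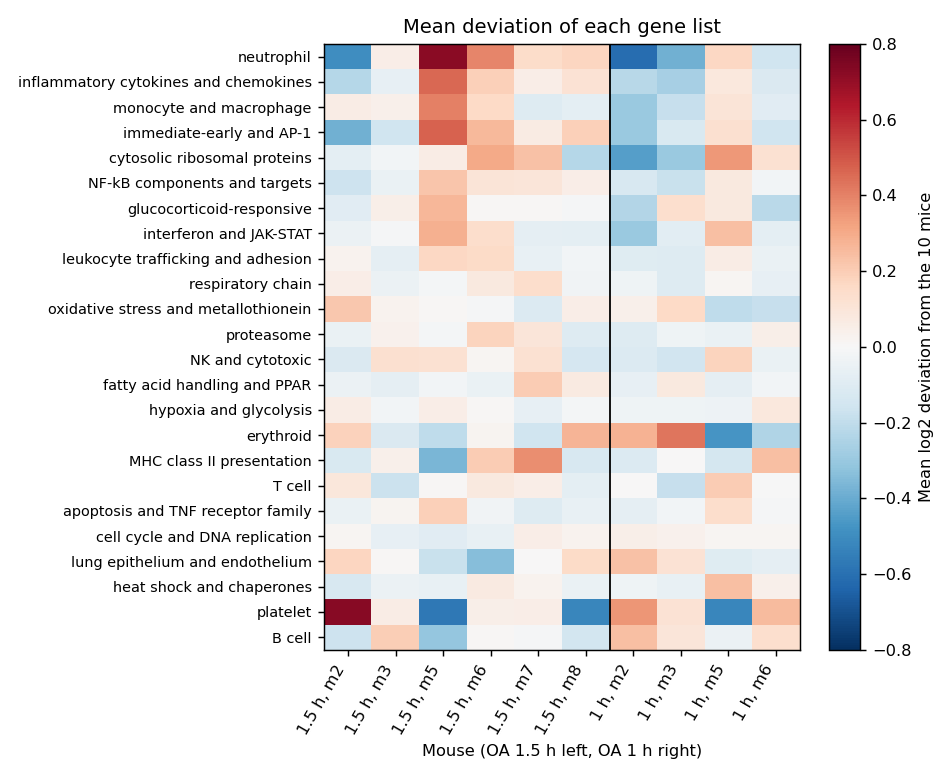
Mean log2 deviation of each gene list in each mouse from the mean of the 10 OA mice (colour), with the 6 mice of 1.5 h to the left of the line, the 4 mice of 1 h to its right, and lists ordered by the difference between the times. The neutrophil row runs from -0.50 to 0.72 within 1.5 h, and the platelet row is highest in mouse 2 of 1.5 h.

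Fatty acid handling and PPAR genes had 16 of 36 members above 0 with a median of -0.01, and Plin2, which coats lipid droplets and answers to fatty acids, had 7.59, 8.31 and 9.31 at 1.5 h, against 7.58, 7.60, 7.61 and 9.14 at 1 h (change 0.39, SE 0.31, or 0.78 without mouse 5 of 1 h and 0.20 without mouse 5 of 1.5 h). Hypoxia and glycolysis genes had 9 of 21 above 0 with a median of -0.04, Ldha, which makes lactate, having a change of 0.34 (SE 0.16), or 0.20 without mouse 2 of 1 h. Oxidative stress and metallothionein genes had 23 of 34 above 0 with a median of 0.09, and Txn1, the thiol reductase thioredoxin, had 0.69 (SE 0.38), or 0.46 without mouse 5 of 1.5 h. Glucocorticoid-responsive genes had 9 of 17 above 0 with a median of 0.03, and interferon and JAK-STAT genes 24 of 37 with a median of 0.10, Jak1 having 0.43 (SE 0.23), or 0.22 without mouse 2 of 1 h.

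Ribosomal protein genes had 35 of 51 members above 0 with a median of 0.13, and Rpsa, with 10.37 in mouse 2 of 1 h and 12.86 to 12.96 in the other 3, had a change of 0.98 (SE 0.65), or 0.35 without that mouse. Respiratory chain genes had 40 of 62 above 0 with a median of 0.09 (Cox6b1 0.55, SE 0.24, well above background on 5 of 8 arrays of 1.5 h and 1 of 5 of 1 h, the smallest p being that of Atp5g1, well above background on 1 of 13 arrays), proteasome genes 17 of 31 with 0.06 (Psmc2 0.27, SE 0.18, or 0.15 without mouse 7 of 1.5 h and 0.17 without mouse 2 of 1 h), and heat shock and chaperone genes 13 of 35 with -0.09 (Dnajb11 -0.33, SE 0.17, or -0.16 without mouse 5 of 1 h). Leukocyte trafficking genes had 26 of 44 above 0 with a median of 0.06 (Pfn1 0.42, SE 0.19, or 0.26 without mouse 2 of 1 h). Apoptosis genes had 13 of 31 above 0 with a median of -0.05 and cell cycle genes 21 of 51 with -0.03, and in both the smallest p was that of Birc5. Birc5 and the cyclin gene Ccnb2, both lower at an unadjusted p under 0.05, were not well above background on any array.

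Markers of red cells and platelets varied widely between mice of 1 time. Erythroid genes had 13 of 28 members above 0 and a median of -0.0001 (Nfe2 0.40, SE 0.17). Ank1, an anchor of the red cell skeleton, was on the lower side at an unadjusted p under 0.05 and was not well above background on any array. Alas2, the first enzyme of heme synthesis in red cells, had 11.71, 12.21 and 14.17 at 1.5 h, against 9.95, 11.69, 13.17 and 13.68 at 1 h, with mouse 8 of 1.5 h and mice 2 and 3 of 1 h high and mouse 5 of 1 h low. Platelet genes had 4 of 11 above 0 and a median of -0.15, with mean deviations of -0.57 to 0.73 at 1.5 h and of -0.52, 0.12, 0.25 and 0.35 at 1 h (Itga2b -0.47, SE 0.25, or -0.19 without mouse 5 and -0.77 without mouse 3 of 1 h). MHC class II presentation genes had 3 of 9 above 0 with a median of -0.02, and their smallest p was that of the costimulator gene Cd80, not well above background on any array. The median was -0.07 for lung epithelium and endothelium genes, with 4 of 13 above 0, of which Tek, an endothelial receptor gene, was well above background on 5 of 8 arrays of 1.5 h and 5 of 5 of 1 h (change -0.35, SE 0.23, or -0.22 without mouse 8 of 1.5 h). Among genes whose change or level was examined, 19 have several clones. Of these, 12 had changes of the same sign on all clones, and Surf2, Ms4a1, Psmc2, Ccl22, Xcl1, Cd79b and Rdh10 did not. Markers described only by their signal against background were not counted, and among them Cd3e, Pf4, Hba-a1 and Hbb-b1 also had clones of both signs. The part of the red cell and platelet genes in the changes above was not tested.

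The largest differences among the 10 mice did not follow time. The first principal component held 32.5% of the variance and placed mouse 5 of 1 h (28.8) and mice 5 and 6 of 1.5 h (25.1 and 20.7) at one end, and mice 2 and 3 of 1 h (-24.0 and -22.7) and mouse 2 of 1.5 h (-13.3) at the other. The median absolute log2 difference over clones was 0.28 between mice of different times, against 0.27 between 2 mice of 1.5 h and 0.30 between 2 mice of 1 h. Between 2 filters of the same mouse it was already 0.19 (mouse 3 of 1.5 h), 0.22 (mouse 5 of 1.5 h) and 0.24 (mouse 6 of 1 h). Genes chosen after their values were seen, as the most variable within the times, included Rdh10, a retinol dehydrogenase gene, with 10.06 and 9.98 in mice 5 and 6 of 1.5 h, 12.90 to 13.39 in the other 4, and 10.29 in mouse 5 of 1 h, 12.19 to 12.63 in the other 3. Acsl4, which activates long-chain fatty acids, was likewise 10.82 and 11.11 in mice 5 and 6 of 1.5 h and 13.71 to 14.09 in the other 4, and at 1 h 11.20 in mouse 5 and 13.13 to 13.71 in the others. The groups of the 2 times overlapped in both genes. Between the 2 filters of mouse 5 of 1.5 h, the log2 difference was -0.82 for Rdh10 and -0.93 for Acsl4.

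**Figure D5:**
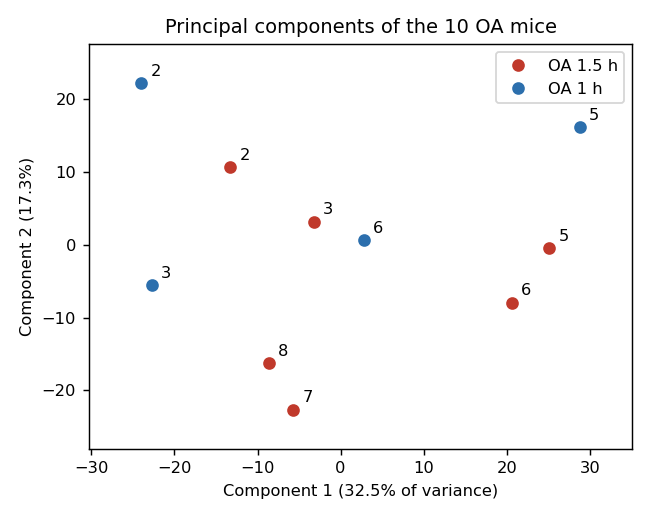
First against second principal component of the 10 OA mice, numbered by mouse, with axes in units of the component score. Mice of 1.5 h and 1 h are intermingled along the first component, with mouse 5 of both times at its right end.

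The difference between OA and serum over the same interval rests on 1 serum mouse at 1.5 h, whose spread was taken from the other groups. Between serum 1.5 h and serum 1 h, 1 of 7739 clones (0.0129%) passed, and 1 clone (0.0129%) passed for the OA change minus the serum change (limma, 164 and 120 clones at an unadjusted p under 0.05). Both were Aqp11, a water channel gene, which the naming rule does not cover and whose value was seen first. Its log2 level was 7.94 in the serum mouse of 1.5 h, against 6.58 and 6.64 in the serum mice of 1 h, while OA mice had 6.35 to 6.71 at 1.5 h and 6.61 to 7.02 at 1 h. It was well above background only on the array of the serum mouse of 1.5 h. The OA change minus the serum change was -1.59 (SE 0.25, limma, adjusted p = 0.00369), and 0 clones passed for it without serum mouse 1 of 1 h.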

How the data were processed

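Expression was measured in PBMC on nylon cDNA filters with 1 radioactive label. Per the labels' protocols, a blood RNA kit was used and the RNA was amplified as antisense RNA. Lung is named as the origin in the extraction protocol and PBMC in the tissue label. The tissue label was followed, and no source tells whether the blood was fractionated.

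The authors deposited 1 spot intensity per spot and filter, on a linear scale with a ceiling of 21815 and no background value. How the images were quantified is not stated in the files used. A second deposited table, of log2 values quantile normalized by the authors over all arrays, served as an alternative. Here, the 7771 clone spots were log2 transformed and quantile normalized over 49 arrays, spots of a clone were averaged (7739 clones), and arrays of a mouse were averaged. The number of arrays limits the precision. Symbols were updated through RefSeq (GRCm38.p6), for 6430 clones by symbol and 1045 by synonym, and 264 had none. A gene is represented by its clone with the highest mean signal.

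Tests used limma 3.58.1 in R 4.3.3 (lmFit, contrasts.fit, eBayes) on 37 mice with a mean for each of the 12 groups of agent and time, and Benjamini-Hochberg adjustment over all clones at 0.05. The code was tested on simulated data. Nothing says that litters or cages differed. The p-values measure a spread between mice pooled within all 12 groups, not that of the 10 OA mice compared alone. The genes named are the 10 of smallest p in each direction among those well above background on at least 4 of 8 arrays of 1.5 h or 3 of 5 of 1 h, the member of smallest p of each of 24 gene lists, list members at an unadjusted p under 0.05, and fixed cell markers. Il1b, Acod1, Junb, Fos, Lmnb1, Il1rn, Dusp1 and Plin2 were singled out after their values were seen. The comparison, the lists and the rule were chosen with earlier results of these data known. A gene on the higher side and a marker that these rules name are not reported here.

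Alternatives were scaling by the median, the authors' table, normexp correction with the empty spots, a filter on dim clones, 1 array per mouse, mouse as a random block, array weights, array number as a covariate, mouse number as a block, the 10 OA mice alone, and leaving out each mouse. A second serum mouse of 1.5 h that the design text counts was not analysed here.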

Additional observations from a re-analysis of the deposited data

Results flagged for a closer look

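In 6 of 170 groups tested (61 genes and 24 lists at 2 times), 1 mouse lay far from the others of its group by Dixon's test, and chance alone gives about 1 in 20. Mouse 2 of 1 h had a log2 level of 6.22 for Pi16, with the next mouse at 6.91, and 10.37 for the ribosomal protein gene Rpsa, with the next at 12.86. Mouse 6 of 1.5 h had 6.38 for Bcl7a, with the next at 7.00. Mouse 5 of 1 h had 8.86 for Tyrobp, with the next at 7.54, and 9.14 for Plin2, with the next at 7.61. Mouse 6 of 1 h had a mean deviation of 0.086 over the hypoxia and glycolysis list, with the next at -0.032. For Aqp11 the OA change minus the serum change was -1.59 by a test of the difference itself, and it rests on the 1 serum mouse of 1.5 h.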

How the results depend on the processing

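The count of clones between OA 1.5 h and OA 1 h was 0 under each alternative run, including each of the 10 mice left out, with 130 to 362 clones at an unadjusted p under 0.05. With the mouse number as a replicate block it was 0, and 1 clone passed for serum and 1 for the difference. The correlation of same-numbered mice, each as a deviation from its group mean, was 0.34, 0.01, 0.58 and 0.21 for numbers 2, 3, 5 and 6, and 3 of 4 mice of 1 h correlated best with their own number, a hint from the data and not the design. The serum count of 1 was 0 with median scaling, with the filter on dim clones, with 1 array per mouse, with mouse as a random block and with array number as a covariate, 2 with normexp and 3 with array weights. Without a serum mouse of 1 h it was 0 to 2. The count of 1 for the difference was 0 with the filter, 1 array per mouse or the random block, 2 with array weights, 0 to 2 without a serum mouse of 1 h, and 1 without any OA mouse. The brightness difference was 0.54, and 0.47 with 1 array per mouse (exact permutation test, p = 0.00952). Of 1209 changes of 61 genes under alternatives, 0 passed and 2 changed sign, those of Il1rn (-0.13 to 0.59 over the mice left out, negative without OA 1.5 h mouse 5) and Junb (-0.12 to 0.75, negative without OA 1 h mouse 2). A size over 1.5 times larger or smaller was found for 101 of them, with normexp, left-out mice, array weights, the replicate block or median scaling. The cause of these shifts was not tested.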
